A study of Mus musculus with 33 samples.

Results

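The cytosolic ribosomal protein genes were taken from the annotation of the Affymetrix MGU74Av2 mouse array as every probe set with a single symbol that begins with Rps or Rpl and a digit, or that is Rpsa, Rplp0, Rplp1, Rplp2 or Fau. Kinases of the Rps6k family and pseudogene names were left out. This gave 36 genes with 50 probe sets, of 8949 gene symbols and 12422 probe sets on the array other than controls. Of these, 28 probe sets of 19 genes belong to the small subunit and 22 probe sets of 17 genes to the large subunit. Another 39 ribosomal protein probe sets carry several symbols, mostly a parent gene with its pseudogenes, and were counted but not named. Rplp1 and Rps6 were found only among those, and Rplp2 had no probe set with a single symbol. The 5 probe sets of the paralogs Rpl39l, Rpl7l1, Rps27l and Rps4l met the rule and were kept.

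Whole lung and whole liver of C57BL/6J mice were measured on 33 arrays in 11 groups of 3. Lungs of animals kept in room air came from fetuses of gestation day 21, called F21, and from newborns aged 2, 6, 12 and 24 h, and livers of room air from F21, 2 h and 6 h. The remaining lungs came from a 10% oxygen atmosphere: fetuses at F21 after the dam had spent 12 h in it, and newborns at 2 h and 6 h after birth into it. The labels mark no transgene, drug or shared treatment, and do not say whether the 3 arrays of a group came from separate litters, so that p-values measure the spread between these samples only. In whole organs, fewer cells of a type and less RNA per cell cannot be told apart. The labelled organs carried their markers: 6 lung markers summed to 22416 to 74556 in the lung groups and 196.4 to 473.7 in liver, and 5 liver markers to 105236 to 133918 in liver.

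The cytosolic ribosome is built from a small subunit, which reads the messenger RNA, and a large subunit, which joins the amino acids. Each holds ribosomal RNA and one copy of most ribosomal proteins, and the messenger RNAs of these proteins are among the most abundant in growing cells. Most of them begin with a short run of pyrimidines, the 5′ terminal oligopyrimidine tract, through which mTOR signalling and the protein Larp1 control their translation.

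Signal is the MAS5 intensity on a linear scale, with each array scaled to a target of 100. It cannot be compared between probe sets, whose probes bind with different strength. By mean signal in the 24 lung arrays the 50 probe sets fell into 3 classes. Of the 6931 lung probe sets that passed the filter on low signal, 32 were ribosomal protein probe sets. Of these, 21 were in the brightest 10% and are called the bright set below, and 11 were dimmer. The remaining 18 did not pass and were not tested in lung. Fau, which encodes a ubiquitin-like protein fused to Rps30, was among them, at 3.5 to 75 over the lung arrays. Some genes have a probe set in the bright set and others near the floor of 10, such as the 4 of Rps4x with a mean lung signal of 13.3 to 27.6 and the 1 of Rpl7 with 15.4. Within groups of lung arrays, the median SD on the log2 scale was 0.23 for the bright set, 0.81 for the 11 dimmer ones and 0.51 for all tested probe sets.

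The promoter windows of the 10 genes that fell at 2 h in room air (below) are shown to give the letters around their starts, followed by 3 genes that did not fall, chosen after their values were seen. Each run holds 40 bases before and 20 bases after the RefSeq start of the first listed transcript, in the direction of the gene, on build GRCm38.p6. Capitals mark CTTTC or CTTCC on the gene strand, and CCGGAA and AAGATGGC on either strand. CTTCC and the reverse of CCGGAA can overlap.
Rps10, chr17:27635225-27635284, minus strand: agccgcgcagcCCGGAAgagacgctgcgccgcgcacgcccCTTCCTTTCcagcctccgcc
Rpl19, chr11:98026670-98026729, plus strand: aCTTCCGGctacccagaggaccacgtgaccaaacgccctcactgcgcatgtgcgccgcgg
Rpsa, chr9:120127726-120127785, plus strand: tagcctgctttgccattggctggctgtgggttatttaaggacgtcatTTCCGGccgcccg
Rps3, chr7:99483690-99483749, minus strand: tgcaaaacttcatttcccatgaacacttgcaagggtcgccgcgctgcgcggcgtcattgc
Rpl41, chr10:128549149-128549208, minus strand: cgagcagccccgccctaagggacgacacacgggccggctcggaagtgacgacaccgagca
Rps28, chr17:33824543-33824602, minus strand: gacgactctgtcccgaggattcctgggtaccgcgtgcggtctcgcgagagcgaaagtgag
Rpl6, chr5:121204461-121204520, plus strand: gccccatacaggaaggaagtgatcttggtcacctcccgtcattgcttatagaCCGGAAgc
Rps24, chr14:24490638-24490697, plus strand: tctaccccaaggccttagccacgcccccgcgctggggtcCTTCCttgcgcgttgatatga
Rps7, chr12:28635934-28635993, minus strand: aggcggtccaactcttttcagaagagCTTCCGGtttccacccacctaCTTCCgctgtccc
Rplp0, chr5:115559427-115559486, plus strand: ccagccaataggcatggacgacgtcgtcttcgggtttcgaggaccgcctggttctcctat
Rps19, chr7:24884552-24884611, plus strand: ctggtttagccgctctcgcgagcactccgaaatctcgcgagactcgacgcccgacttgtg
Rpl37a, chr1:72711220-72711279, plus strand: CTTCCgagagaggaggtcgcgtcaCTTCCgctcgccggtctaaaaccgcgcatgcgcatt
Rps27, chr3:90213629-90213688, minus strand: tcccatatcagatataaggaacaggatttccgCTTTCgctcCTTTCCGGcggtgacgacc

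Of the 36 genes, 29 had 38 windows of 300 bases in the RefSeq table. CTTTC or CTTCC within 20 bases of the start on the gene strand was found in 13 of the 38 windows (34.2%), against 13.7% of all 32851 windows. CCGGAA, the core of ETS factor sites, was found on either strand in 17 windows (44.7%), against 14.9% of all. AAGATGGC, the core bound by Yy1, was found on either strand in 8 windows (21.1%), against 2.75% of all. Among the 12 windows of the 10 genes that fell at 2 h, the counts were 3 for the pyrimidine letters, 7 for CCGGAA and 0 for AAGATGGC. These matches describe letters only, and the start in the table can differ from the start used in lung.

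At 2 h after birth in room air, 11 of the 32 tested ribosomal protein probe sets were lower than at F21, 1 was higher, and 20 did not pass limma's test at an adjusted p under 0.05. Of all 6931 probe sets tested, 4.24% were called in this comparison, 2.77% lower and 1.47% higher. The 1 that was higher, a dim probe set of Rps28, passed the filter on low signal only through the 2 h arrays of room air, so that its call had to follow and is only counted. The 11 that fell were all in the bright set and fell by 0.70 to 1.07 on the log2 scale. Their genes were Rps10, Rpl19, Rpsa, Rps3, Rpl41, Rps28 (both bright probe sets), Rpl6, Rps24, Rps7 and Rplp0. The median change was -0.70 over the 32, -0.79 over the bright set and 0.02 over all tested probe sets. By subunit, 7 of 17 small-subunit and 4 of 15 large-subunit probe sets were lower. The groups did not overlap for 18 probe sets that were lower and 3 that were higher, against 16.1% and 14.7% of all tested probe sets. Of the 35 tested probe sets with several symbols, 6 were lower and 0 higher, with a median of -0.36. The count of 12 calls was 2 without F21 replicate 3, 6 without 2 h replicate 1 and 4 without 2 h replicate 3. The methods' t-test called 9 at an unadjusted p under 0.01 and 0 after Benjamini-Hochberg adjustment.

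The 50 probe sets together held 6.68% to 8.12% of the summed signal of the room-air F21 lung arrays and 4.55% to 4.95% at 2 h, with no overlap. At 6 h the share was 6.33% to 6.40%, at 12 h 5.23% to 6.89%, and at 24 h 5.29% to 7.01%. In 10% oxygen it was 7.0% to 7.55% at F21, 5.77% to 6.65% at 2 h and 5.53% to 6.74% at 6 h. The liver arrays lay between 4.46% and 5.07% in all 3 groups.

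**Figure D1:**
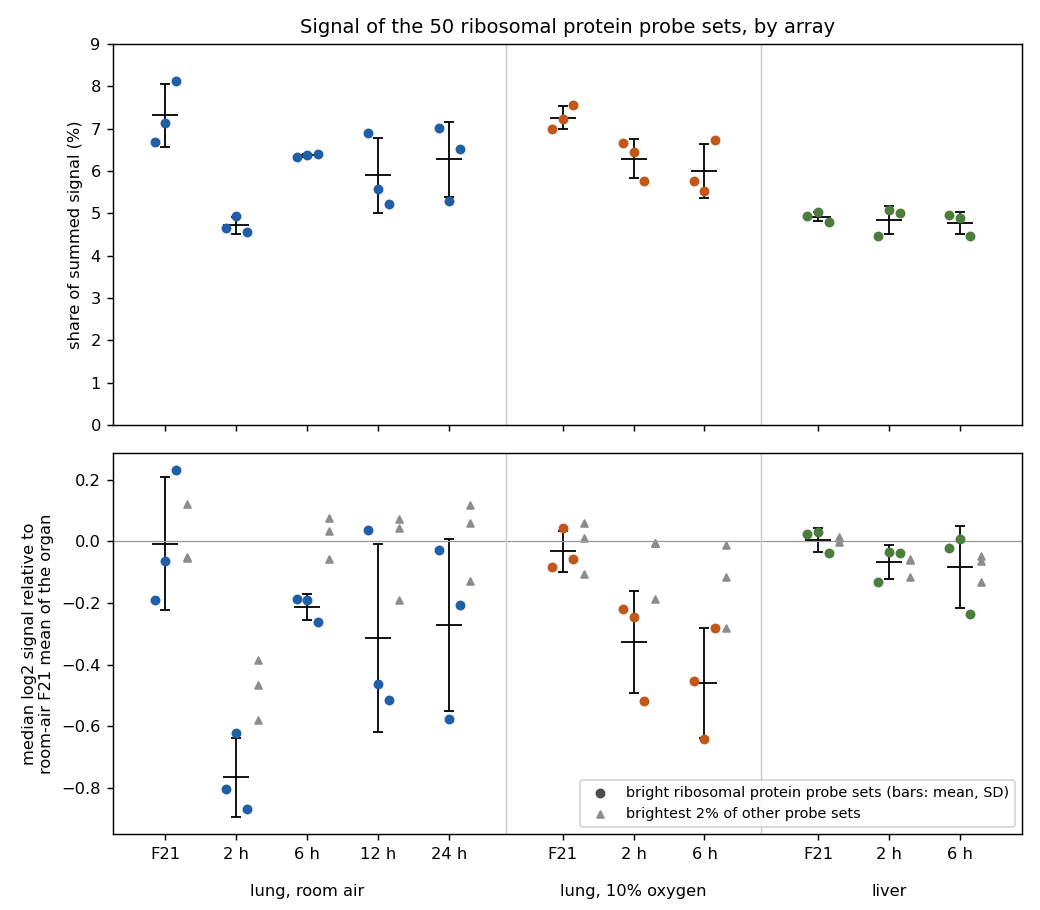
Share of each array's summed signal held by the 50 ribosomal protein probe sets (top, %) and median log2 signal of the bright set relative to the room-air F21 mean of the same organ (bottom), by group. Points are arrays, bars are the mean and SD of 3 arrays, and grey triangles are the brightest 2% of other probe sets; the room-air lung arrays at 2 h lie between -0.87 and -0.62 in the lower panel, and 1 array of 10% oxygen at 6 h lies at -0.64.

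Other measures of the arrays moved at 2 h in room air too. The brightest 10% of tested probe sets that are no ribosomal protein had a median change of -0.19 (648 probe sets, 71 lower and 12 higher), and the brightest 2% had -0.49 (99 probe sets, 24 lower and 2 higher). The BioB 3′ hybridization control, a bacterial RNA added in equal amount to each sample, read 75.9 to 110.7 at 2 h against 226.6 to 529.4 at F21. It was also low at 12 h, at 73.9 to 99.5. The controls of the BioB middle, BioC and BioDn were also lower at 2 h than at F21, without overlap. They read 242.0 to 251.6 against 285.0 to 699.7, 438.0 to 493.5 against 612.4 to 1377.9, and 294.1 to 394.8 against 425.8 to 1193.5. The BioB 5′ control read 127.6 to 197.6 at 2 h against 151.2 to 396.8 at F21, and the CreX control 4690.0 to 5634.4 against 4918.4 to 13229.6, both with overlap. Low controls were not particular to 2 h. At 12 h the BioB middle read 96.0 to 177.2, BioC 290.0 to 320.1, BioDn 174.9 to 226.4 and CreX 2057.7 to 2889.7. At 24 h they read 231.1 to 253.8, 469.8 to 528.3, 308.5 to 410.4 and 3335.8 to 4058.2. Each of these ranges lay below that of F21. With quantile normalization, which gives all arrays the same spread of signals, the median of the bright set was -0.21, that of the brightest 2% was -0.07, and 4 ribosomal protein probe sets were lower and 2 higher. The part of signal compression in the falls was not tested.

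**Figure D2:**
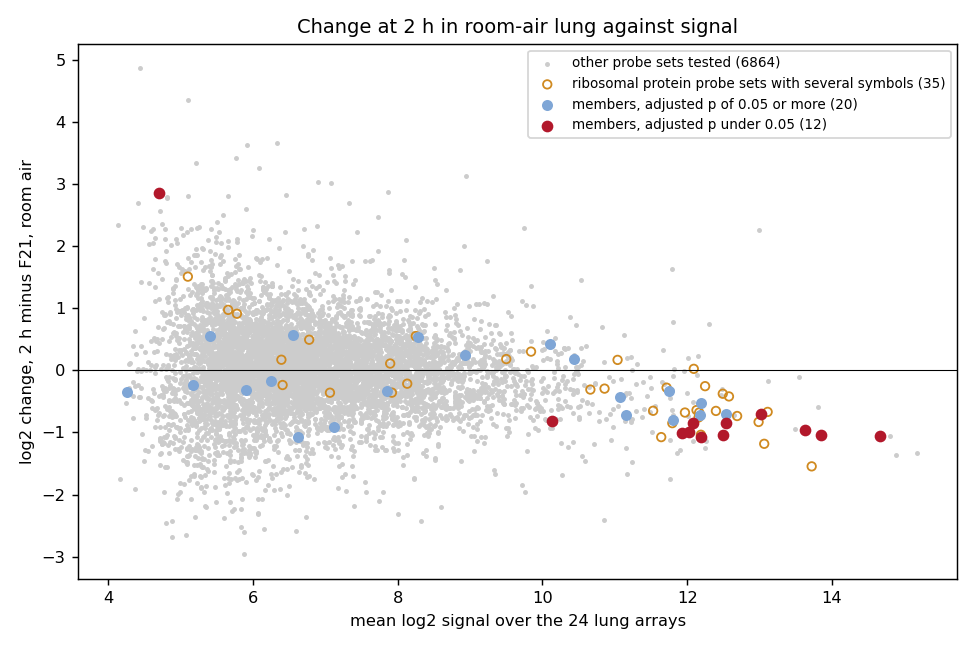
Log2 change from F21 to 2 h in room-air lung against mean log2 signal over the 24 lung arrays, 1 point per tested probe set. The ribosomal protein probe sets that fell (red) lie at high signal, where other probe sets also lie mostly below 0.

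Rps10, a protein of the small subunit's head, gave the smallest p of the set. Its signal was 5568, 5843 and 5472 at F21 and 2217, 2993 and 2919 at 2 h. The groups did not overlap. The log2 change was -1.07 ± 0.20 (SE, n = 3 against 3; adjusted p = 0.00383 in limma). Rpl19, a large-subunit protein that reaches across to the small subunit, read 5837, 6969 and 7261 at F21 and 3463, 3571 and 2774 at 2 h. It fell by 1.04 ± 0.20 (SE, adjusted p = 0.00403 in limma), again without overlap. Both kept their call in all 6 fits that left out 1 array and under all 6 other settings of the same test, quantile normalization included, where the changes were -0.63 and -0.61.

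Rpsa, a small-subunit protein first known as a laminin receptor, read 1468, 1063 and 1583 at F21 and 795.4, 775.9 and 740.0 at 2 h. All 2 h arrays lay below all F21 arrays, and the change was -0.81 ± 0.17 (SE, adjusted p = 0.00893 in limma). Rps3, which sits at the messenger RNA entry and also acts in DNA repair, read 5132, 4867 and 7201 against 3017, 3209 and 2317. It fell by 1.0 ± 0.22 (SE, adjusted p = 0.00947 in limma), but did not pass with quantile normalization (-0.41, adjusted p = 0.139). Rpl41, the smallest ribosomal protein, read 28034, 32203 and 34037 at F21. At 2 h its arrays read 15424, 14692 and 15278, which is a change of -1.05 ± 0.23 (SE, adjusted p = 0.00997 in limma). Its probe set is of the family type, whose probes can bind related sequences, and under quantile normalization its change was 0.15.

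Rpl6, Rps7 and Rplp0 were lower by smaller margins of the test. Rpl6 fell by 1.01 (adjusted p = 0.0185 in limma) and Rps7, which binds the p53 regulator Mdm2, by 0.85 (adjusted p = 0.0386). Rplp0, the base of the stalk that recruits elongation factors, read 7672, 7915 and 10412 at F21 and 5398, 6161 and 4409 at 2 h, a fall of 0.70 (adjusted p = 0.0498). Rps7 and Rplp0 each kept their call in 1 of 6 fits that left out an array. With quantile normalization Rpl6, Rps7 and Rplp0 did not pass (adjusted p = 0.185, 0.456 and 0.627 in limma). The probe set annotated as Rps24 fell by 0.97 (adjusted p = 0.0239), but its source sequence is shared with a probe set annotated as Rpl7, so that its naming is uncertain. It kept its call in 2 of 6 fits that left out an array, and lost it with quantile normalization (-0.40, adjusted p = 0.116).

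The 3 probe sets of Rps28, a protein at the messenger RNA exit, disagreed. One bright probe set, of the family type, read 18366, 18534 and 20555 at F21 and 8448, 10370 and 9157 at 2 h (-1.04, adjusted p = 0.0107 in limma). Under quantile normalization its change was -0.20 and did not pass (adjusted p = 0.57). The second bright probe set read 6035, 6736 and 8103 and then 3671, 4344 and 3515 (-0.85, adjusted p = 0.0172). The third, the dim one made with relaxed probe rules, read 52.9, 19.9 and 5.6 at F21 and 115.4, 216.4 and 161.0 at 2 h. Since those 2 h arrays alone brought it past the filter, these values are a description with no test.

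Not all bright members were lower at 2 h. Rps19, the gene most often mutated in Diamond-Blackfan anaemia, read 800.3, 1119 and 1082 at F21 and 1211, 1582 and 1215 at 2 h. These groups did not overlap, but the change of 0.42 (95% interval 0.05 to 0.79) did not pass (adjusted p = 0.207 in limma). Rpl37a had a change of 0.17 (95% interval -0.20 to 0.55). The family-type probe set of Rpl10a had 0.25, whereas the main probe set of that gene had -0.72, and neither passed. Among the dimmer probe sets Rps27, a zinc-finger protein of the small subunit, had 0.53 (95% interval 0.07 to 0.99) and did not pass (adjusted p = 0.2). Rpl7, Rps18, Rps3a1 and Rpl10a (main probe set) had values from -0.79 to -0.70 and did not pass, although their groups did not overlap. In total 17 of the 32 members were lower at an unadjusted p under 0.05 and 3 higher, against 700 and 537 of all 6931. The 3 include the dim probe set of Rps28.

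**Figure D3:**
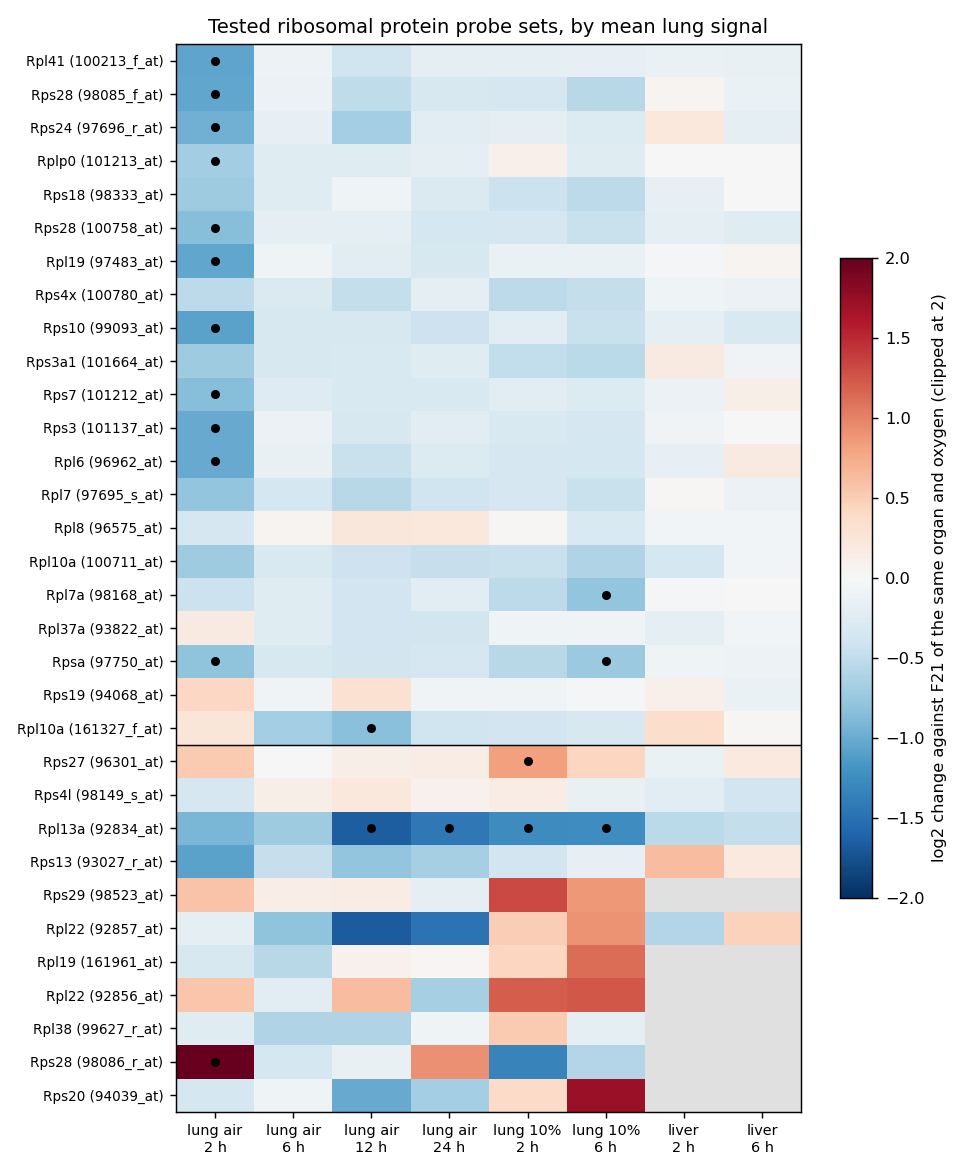
Log2 change of each tested ribosomal protein probe set against F21 of the same organ and oxygen level, ordered by mean lung signal, with the line below the 21 bright ones. Black dots mark an adjusted p under 0.05 in limma and grey cells were not tested in liver; the 11 falls at 2 h in room air stand in the first column.

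At 6 h the bright set lay nearer to its F21 level in room air, with a median shift per array of -0.26 to -0.19. At 6 h against 2 h, 6 probe sets were higher and 2 lower of the 32 tested, against 3.46% of all probe sets called (2.28% higher, 1.18% lower), and the count of 8 calls was 1 to 5 when any of the 6 arrays was left out. Rpl19 rose by 0.95 (adjusted p = 0.00821 in limma), from 2774 to 3571 at 2 h to 5810 to 6963 at 6 h. Rpl41 rose by 0.95, Rps28 (the brightest probe set) by 0.93, Rps3 by 0.88, Rpl6 by 0.86 and Rps10 by 0.74, with adjusted p from 0.0222 to 0.0479. The family-type probe set of Rpl10a fell by 0.92 (adjusted p = 0.00794). The other one counted as lower was the dim probe set of Rps28, which the 2 h arrays alone brought past the filter. With quantile normalization 0 were higher and 4 lower, and the median over the 32 was -0.06 in place of 0.40. This comparison shares the 2 h arrays with the one against F21 and is no independent evidence of a low point at 2 h.

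Against F21, 0 of 32 passed at 6 h (1.02% of all probe sets called), and the median was -0.24. Values lay below 0 for 29 of 32 members and for 3720 of all 6931 probe sets. At an unadjusted p under 0.05, 2 members were lower, against 423 of all 6931. The methods' t-test also called 0. At 12 h 2 were lower and 0 higher (1.34% of all called), with a median of -0.35, or -0.16 with quantile normalization. At 24 h 1 was lower and 0 higher (0.577% of all called), with a median of -0.28, or -0.18 with quantile normalization. These comparisons and that at 2 h share the F21 arrays.

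Rpl13a, which as a free protein represses translation of inflammatory messenger RNAs, was lower at 12 h and 24 h. Its signal was 200.1, 237.0 and 260.9 at F21, and 149.5, 89.5 and 140.4 at 2 h. At 6 h it was 132.0, 164.5 and 129.9, at 12 h 89.6, 75.4 and 58.5, and at 24 h 125.5, 91.1 and 55.5. Every array after birth lay below every F21 array. The changes were -0.91 at 2 h (adjusted p = 0.0888 in limma), -0.71 at 6 h (adjusted p = 0.33), -1.66 ± 0.30 at 12 h (adjusted p = 0.0049) and -1.43 ± 0.30 at 24 h (adjusted p = 0.0283). The second call at 12 h was the family-type probe set of Rpl10a, at 646.6 to 722.6 at F21 and 289.9 to 491.6 at 12 h (-0.84, adjusted p = 0.0277). The main probe set of Rpl10a did not pass at 12 h. Rpl13a lost its call at 24 h without any 1 of the F21 arrays or 24 h replicate 3, and 1 of the 2 calls at 12 h was lost without any 1 of the F21 arrays or 12 h replicate 1 or 2.

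**Figure D4:**
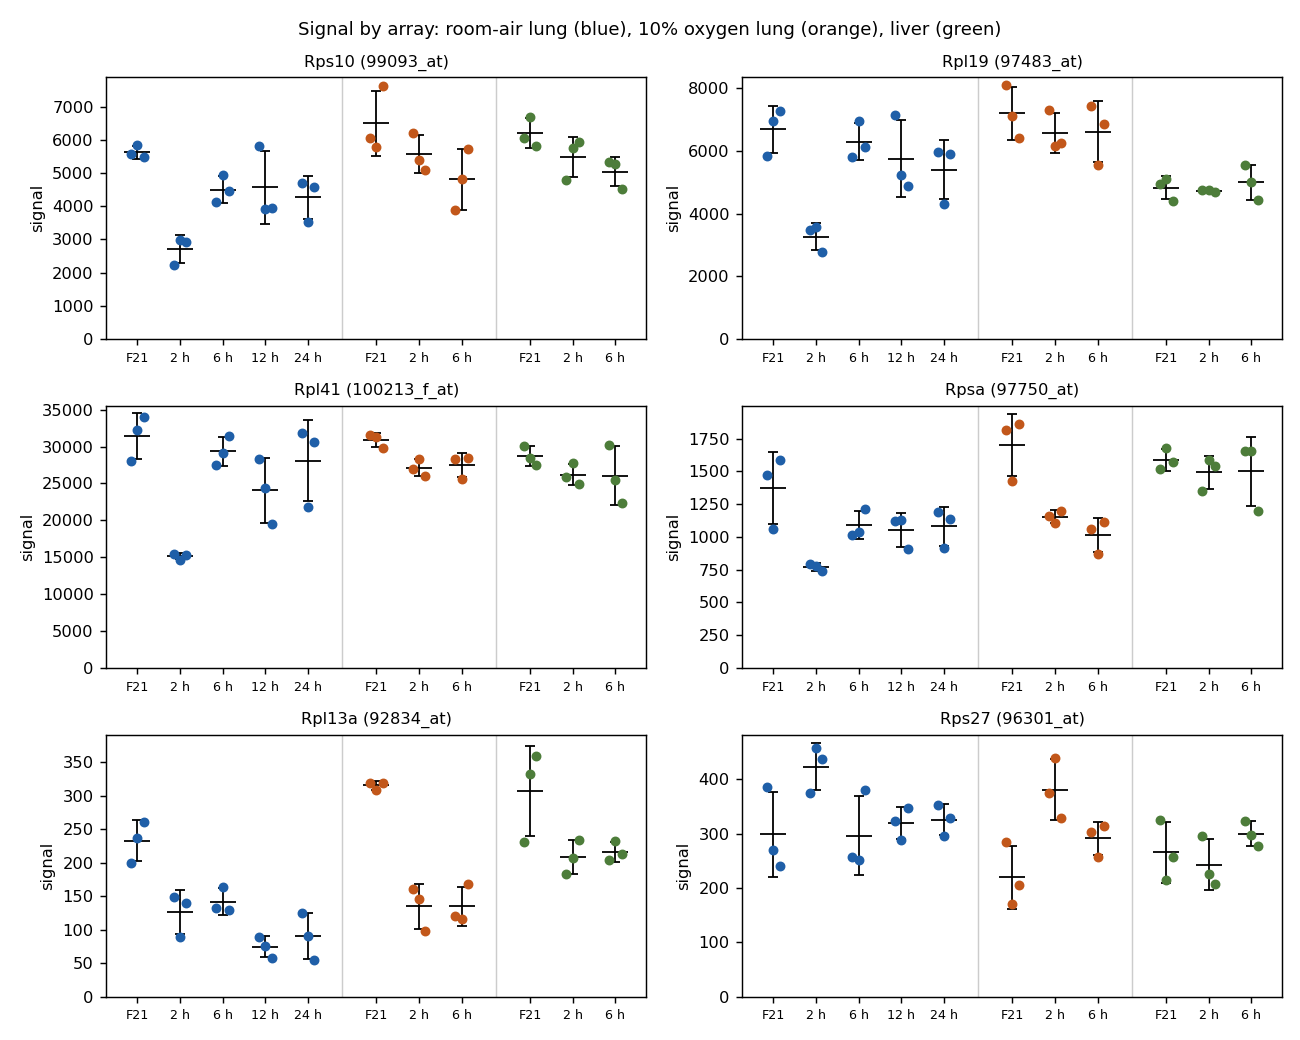
Signal of 6 ribosomal protein probe sets on each array, with mean and SD of 3 arrays, in room-air lung (blue), 10% oxygen lung (orange) and liver (green). Rps10, Rpl19, Rpl41 and Rpsa were lowest at 2 h in room-air lung, whereas Rpl13a was lowest at 12 h and 24 h.

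The 10% oxygen lungs stood apart in the ratio of Gapdh 3′ to 5′ signal, which rises as RNA is degraded: it was 1.21 to 9.40, against 0.734 to 1.15 in room-air lung. Its part in the values below was not tested beyond a fit with the ratio as covariate. F21 replicate 2 of 10% oxygen had a sum of 3051 over 5 liver marker genes, against 46.4 to 425.1 in the other lung arrays. Without that array 0 members were called at 2 h and 2 at 6 h.

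In 10% oxygen, 1 of the 32 was lower and 1 higher at 2 h than at F21 of 10% oxygen (2.65% of all probe sets called), with a median of -0.22 over the 32 and -0.33 over the bright set, which were -0.07 and -0.11 with quantile normalization. Rpl13a read 318.4, 308.1 and 319.0 at F21 and 161.2, 146.1 and 97.6 at 2 h, a change of -1.26 ± 0.30 (SE, adjusted p = 0.0235 in limma). Rps27 read 284.1, 171.4 and 204.8 at F21 and 375.1, 439.3 and 328.4 at 2 h, a change of 0.81 ± 0.22 (SE, adjusted p = 0.048). Neither pair of groups overlapped. At 6 h, 3 were lower and 0 higher (6.31% of all called). These were Rpsa (-0.75, adjusted p = 0.0113), Rpl13a (-1.24, adjusted p = 0.0139) and Rpl7a (-0.79, adjusted p = 0.0248). Rpsa read 1815, 1427 and 1858 at F21 and 1059, 867.4 and 1112 at 6 h. Rpl7a, a protein of the large subunit, read 1778, 2926 and 2624 and then 1263, 1289 and 1618. When only the groups compared were fitted, 0 members passed at 2 h and at 6 h. The count at 2 h was 0 without F21 replicate 2 or 3 or 2 h replicate 2 or 3, and 1 without 2 h replicate 1. The count at 6 h was 0 without 6 h replicate 2 and 1 without F21 replicate 3.

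Rpl19 and Rps10, which gave the smallest p values in room air, had smaller changes in 10% oxygen at 2 h. They were picked by their fall in room air, which by itself favours a smaller change in 10% oxygen. Rpl19 read 8088, 7101 and 6402 at F21 and 7298, 6157 and 6269 at 2 h, with overlap (-0.13). Rps10 read 6067, 5798 and 7621 and then 6203, 5406 and 5093, also with overlap (-0.22). The difference between the oxygen levels was itself tested. For Rpl19 it was -0.91 (95% interval -1.48 to -0.33, adjusted p = 0.164 in limma) and for Rps10 -0.85 (95% interval -1.43 to -0.27, adjusted p = 0.209), so that neither passed. Of the 32, 1 was called, against 0.476% of all probe sets. This was the dim probe set of Rps28, which entered the test only through the room-air 2 h arrays and lost its call in 10 of the 12 fits that left out 1 array. In 10% oxygen it read 22.6, 25.2 and 28.5 at F21 and 9.5, 7.2 and 8.7 at 2 h, the last 3 under the floor of 10, so that nothing is read from its call. At 6 h 0 members passed limma's test of the difference (0.0144% of all called), and 0 had an unadjusted p under 0.05. Of all 6931 probe sets, 316 were lower and 279 higher at that threshold.

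Before birth, 0 of 32 members differed between 10% oxygen and room air at F21 (7.13% of all probe sets called). The median was -0.03, and the methods' t-test called 0. At an unadjusted p under 0.05, 4 members were lower and 0 higher, against 903 and 647 of all 6931 probe sets. The smallest p belonged to Rpl37a (-0.47, 95% interval -0.84 to -0.10, adjusted p = 0.121 in limma). With the Gapdh ratio as covariate, 2 members were called.

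In liver 0 of 27 tested members passed at 2 h (0.913% of all 5693 probe sets called) or at 6 h (1.84% of all called), with medians of -0.09 and -0.05. In each comparison 2 were lower at an unadjusted p under 0.05 in limma. Of all 5693 probe sets, 328 were lower at that threshold at 2 h and 403 at 6 h. The methods' t-test called 0 members in each comparison. Rpl19 read 4955, 5099 and 4405 at F21 and 4758, 4747 and 4701 at 2 h. Rps10 read 6066, 6702 and 5827 and then 4804, 5744 and 5930. Rpl13a had the smallest p at 2 h, with -0.54 (95% interval -0.99 to -0.10, adjusted p = 0.291 in limma). The difference between the 2 h changes of room-air lung and liver passed for Rpl19 alone of 36 members (0.929% of all 7640 called), at -1.01 ± 0.25 (SE, adjusted p = 0.0363). It did not pass with quantile normalization (-0.74, adjusted p = 0.124) or in 10 of the 12 fits that left out 1 array. For Rps28 (family-type probe set) it was -1.09 (adjusted p = 0.0597) and for Rps10 -0.89 (adjusted p = 0.0886). At 6 h 0 passed (0.196% of all called), and 2 were lower at an unadjusted p under 0.05, against 345 of all 7640.

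At F21, 12 of 36 members were higher in room-air lung than in liver and 1 was lower, where 28% of all 7640 probe sets were called (16% higher and 11.9% lower). The median was 0.40 over the members and 0.14 over all tested. Over the brightest 10% of probe sets that are no ribosomal protein it was 0.33, with 259 of 719 higher and 52.6% called, against 47.6% called among the 21 bright members. The family-type probe set of Rpl10a read 646.6, 722.6 and 661.5 in lung and 301.8, 329.7 and 318.5 in liver (1.10 ± 0.21, SE, adjusted p = 0.000133 in limma), and the main probe set of the gene gave 0.74 (adjusted p = 0.00907). Rpl7 was higher by 0.92 (adjusted p = 0.00186), X-linked Rps4x by 0.79 (adjusted p = 0.00597) and Rps19 by 0.66 (adjusted p = 0.00275). Rps10, Rplp0 and Rpl41 had differences from -0.14 to 0.13 and did not pass. The 12 include dim probe sets of Rps4x and Rps29, which kept their calls in 1 and 2 of the 6 fits that left out 1 array. That of Rps4x read 22.1, 53.6 and 41.9 in lung and 5.7, 9.1 and 9.9 in liver, under the floor of 10. The 1 counted as lower was the dim probe set of Rpl32, which read 22.2, 23.5 and 21.0 in lung and 74.4, 137.8 and 174.6 in liver. It passed the filter only through the liver arrays, so that its values are a description with no test. With quantile normalization 20 were higher and 1 lower, and the median over the members was 0.74. The count of 13 was 6 without lung replicate 3, 7 without liver replicate 1 and 8 without liver replicate 3. The Gapdh 3′ to 5′ ratio at F21 was 0.824 to 1.03 in lung and 1.34 to 1.86 in liver. With the ratio as covariate, Rpl19 (adjusted p = 0.0776 in limma), Rps29 (0.0822) and the dim probe set of Rps4x (0.07) lost their calls. The others called kept theirs. Fetal liver makes blood: 8 erythroid markers summed to 31886 to 37171 in lung and 44782 to 54683 in liver, and 7 neutrophil markers to 445.1 to 676.6 and 19883 to 21510. The part of blood cells in these differences was not tested.

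**Figure D5:**
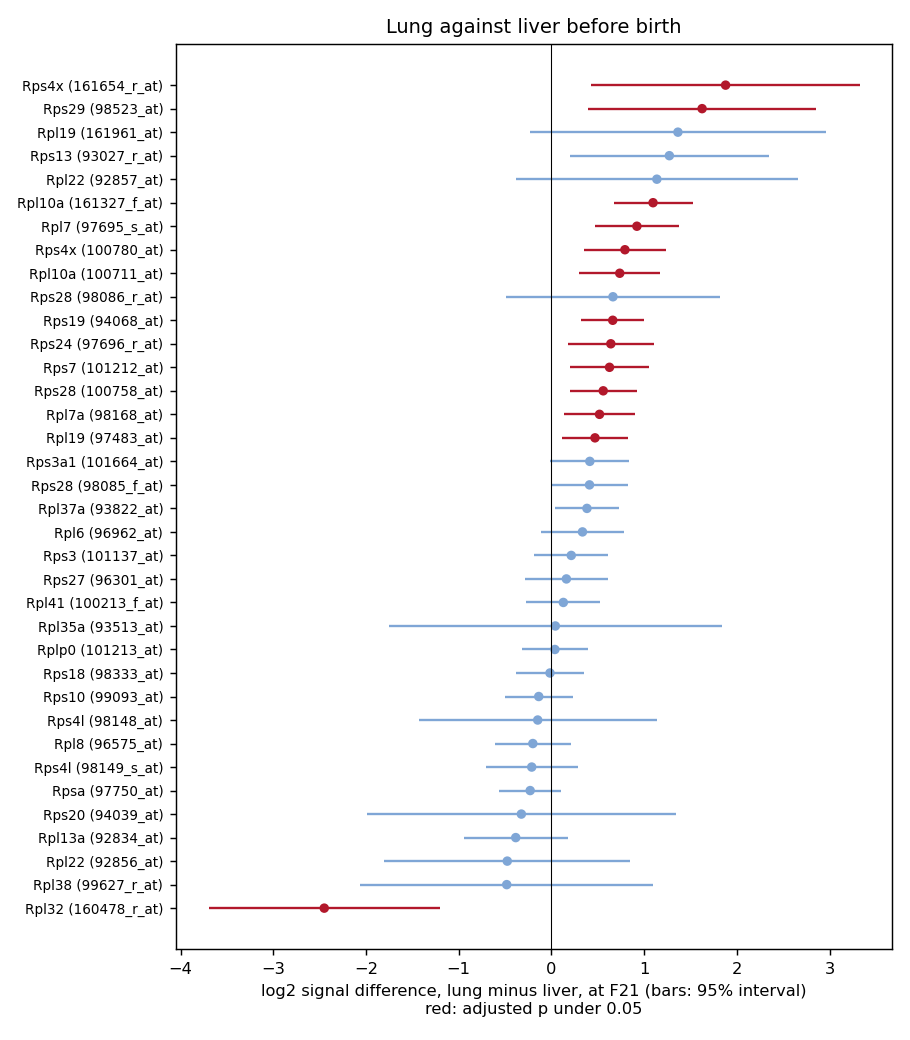
Log2 signal difference of 36 tested ribosomal protein probe sets between room-air lung and liver at F21, with 95% intervals from limma. Red marks an adjusted p under 0.05: 12 lie above 0, and Rpl32, which passed the filter on low signal only through the liver arrays, lies below.

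Other genes of protein synthesis were counted at 2 h in room air, with 1 probe set per gene, where 4.24% of all tested probe sets were called. Among the brightest 10% that are no ribosomal protein, 12.8% were called. Among 7 tested elongation factors 2 were lower and 1 higher: Eef1a1, which brings aminoacyl-tRNA to the ribosome (-0.95, adjusted p = 0.0195 in limma), and its exchange factor subunits Eef1d (-0.88, adjusted p = 0.0439) and Eef1b2 (2.22, adjusted p = 0.0476). Among 31 initiation factors 1 was lower (Eif2s3x, -0.82) and 1 higher (Eif3m, 1.03). Among 48 genes of ribosome biogenesis and the nucleolus 1 was lower, the nucleolar chaperone Npm1 (-1.05, adjusted p = 0.014), and 0 were higher. Of 46 mitochondrial ribosomal proteins 3 were lower and 0 higher: Mrpl12 (-1.56), Mrpl18 (-0.88) and Mrpl23 (-1.02). Of 18 messenger RNAs with a pyrimidine tract other than those of ribosomal proteins, 3 were lower and 1 higher. This list shares genes such as Npm1 with the lists above, so that its counts are not of a separate set. None of 23 genes that control ribosome production or mTOR passed, where Larp1 had -0.55 (adjusted p = 0.19).

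Lists outside translation were counted in the same way, where 4.24% of all tested probe sets were called. Bright probe sets were called more often: of the brightest 10% that are no ribosomal protein, 71 of 648 were lower and 12 higher (12.8%). The lists were not matched for signal. Of 62 oxidative phosphorylation subunits 9 were lower and 0 higher, led by Ndufb6 (-1.31, adjusted p = 0.00209 in limma), and of 33 proteasome subunits 3 were lower and 1 higher, with Psmb2 at -1.14 (adjusted p = 0.00383). Of 9 cell cycle markers 2 were lower, Cdc20 (-1.37) and Cdk1 (-1.38), and their summed signal went from 1492 to 2230 at F21 to 836.1 to 1222 at 2 h. Of 6 tested neutrophil markers 2 were higher, S100a8 (1.65) and S100a9 (1.75). Sums over 7 neutrophil markers, tested or not, were 445.1 to 676.6 and then 1025 to 1211. Of 7 tested erythroid markers 1 was lower, Hba-a1 (-1.05). Sums over 8 erythroid markers, tested or not, were 31886 to 37171 and then 15129 to 19626. Sftpc, the surfactant protein of alveolar type II cells and one of the brightest lung markers, had -1.33 (adjusted p = 0.00428). In 10% oxygen at 6 h, where Rpsa and Rpl7a were lower, 5 of the 18 pyrimidine-tract messenger RNAs were lower and 0 higher, among them Npm1 (-1.38), Pabpc1 (-0.99) and Nap1l1 (-1.09). In that comparison 6.31% of all tested probe sets were called. Of the brightest 10% that are no ribosomal protein, 15.4% were called (59 of 648 lower and 41 higher). The part of changes in cell types in the values of the ribosomal protein genes was not tested.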

How the data were processed

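RNA of lung and liver was hybridized to 33 Affymetrix MGU74Av2 arrays. The authors made the deposited signal intensities in Affymetrix Microarray Suite 5, with each chip scaled to a target of 100. No detection calls were used here. Probe sets were named from the platform's annotation (10855 with 1 symbol, 396 with several, 1237 with none) and 66 controls left out. A floor of 10 was applied before log2. Probe sets among the top 40% of their array in at least 3 arrays were tested: 6931 for lung, 5693 for liver and 7640 for both. Comparisons used limma 3.58.1 in R 4.3.3 (lmFit, eBayes with trend, Benjamini-Hochberg over all probe sets tested, adjusted p under 0.05), with 16 residual degrees of freedom in lung and 6 in liver. Differences between oxygen levels or organs were interaction terms.

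The ribosomal protein genes and all lists were chosen with earlier results of these data known. Named were up to 8 members per direction with the smallest p in each comparison, Rplp0, Rplp1, Rplp2, Rpsa, Fau and Rps6 where possible, genes whose probe sets disagree, the members of highest and lowest signal, and up to 4 genes of each other list. The number of arrays limits the precision: in simulated data for room-air lung at 2 h against F21, 21% of log2 changes of 1 and 67% of log2 changes of 2 were recovered among 6931 probe sets. These shares are over all tested probe sets, with a median SD of 0.51 within groups. They are no rate for the bright set, where it was 0.23. Promoter windows came from RefSeq on GRCm38.p6, and no protein sequence was used. Alternatives were a pseudocount of 16, quantile normalization, no filter, fits of the compared groups only, a block on sample number, the methods' t-test, the Gapdh 3′ to 5′ ratio as covariate, and leaving out each array. The labels do not say that same-numbered samples share an animal, and arrays were not paired. Over all pairs of groups, same-numbered samples had a median correlation of 0.002. Most of these pairs differ in age or oxygen level and could not share an animal. The median therefore cannot decide whether lung and liver of the same age were paired.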

Additional observations from a re-analysis of the deposited data

Results flagged for a closer look

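The change of the dim Rps28 probe set at 2 h differed between oxygen levels by the test of the interaction, at 4.20 on the log2 scale. It passed the filter only through the room-air 2 h arrays, its 10% oxygen arrays at 2 h lay under the floor of 10, and a pseudocount in place of the floor gave 2.98, so that the value is a description and supports nothing. The fall of Rpl19 at 2 h differed between room-air lung and liver by the same kind of test, at -1.01 (adjusted p = 0.0363), a call lost in 10 of the 12 fits that left out 1 array. Groups of 3 arrays were too small for a general search for single arrays far from the others. F21 replicate 2 of 10% oxygen stood apart in its sum of liver markers, as given above.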

How the results depend on the processing

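With quantile normalization the counts of ribosomal protein probe sets called were 6 (from 12) at 2 h against F21 in room-air lung, 4 (from 8) at 6 h against 2 h, 1 (from 0) between oxygen levels at F21, 21 (from 13) for lung against liver at F21, and 0 (from 1) for the difference between lung and liver at 2 h. The median change at 6 h against 2 h turned from 0.40 to -0.057. A pseudocount of 16 gave 2 for the lung and liver difference at 2 h. No filter gave 0 there and 1 in 10% oxygen at 2 h. With fits of the compared groups only, the counts were 1 at 12 h, 0 at 24 h, 0 at 2 h and 0 at 6 h in 10% oxygen, 0 for the oxygen difference and 2 for the organ difference at 2 h. The Gapdh ratio as covariate gave 1 in 10% oxygen at 2 h, 2 between oxygen levels at F21 and 3 for the organ difference at 2 h.

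The methods' t-test at an unadjusted p under 0.01 called 1 at 12 h, 0 at 24 h, 1 at 6 h in 10% oxygen and 6 for lung against liver. After Benjamini-Hochberg adjustment it called 0 at 2 h, 12 h and 24 h in room air, 0 at 2 h and 6 h in 10% oxygen, 2 at 6 h against 2 h and 4 for lung against liver. A replicate block on sample number was also fitted, although the labels do not say that the number pairs samples (correlations of same-numbered samples -0.14 to 0.26). With it the counts were 10 at 2 h in room air, 1 at 2 h in 10% oxygen, 8 for lung against liver, and 0 for the oxygen and the organ difference at 2 h.

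Leaving out each array gave 2 to 11 calls for the 2 h comparison in room air. The range was 1 to 2 for 12 h, 0 to 1 for 24 h and 1 to 5 for 6 h against 2 h. It gave 0 to 2 at 2 h and 0 to 3 at 6 h in 10% oxygen, 6 to 12 for lung against liver, and 0 to 1 for the oxygen and the organ difference at 2 h. The remaining counts of 0 stayed at 0. The causes of these differences were not tested. Probe sets near the floor carry little signal over background, which limits what they can show.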
